A study of Mus musculus with 7 samples.

Results

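The 10 genes described here encode proteins that build the photoreceptor outer segment and the matrix around it, namely Prph2, Rom1, Prom1, Rp1, Rp1l1, Cdhr1, Impg1, Impg2, Tulp1 and Reep6. They were chosen by name for this function, though with earlier results of these data known, as were the other gene lists below. Shares of members called are therefore descriptive. Their peaks were all regions of the deposited peak table that carry a member's symbol. Of the 108253 peaks, 78 carried the symbol of a member, and 9 of the 10 genes had at least 1 peak. Those 9 genes each had a promoter peak, and no peak carried the symbol of Rom1.

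The outer segment is a modified cilium filled with stacked membrane discs that hold the visual pigment, and rods renew these discs throughout life. Peripherin-2 (Prph2) and Rom1 form the complexes that bend the rim of each disc. Prominin-1 (Prom1) and the cadherin Cdhr1 lie where new discs grow from the base, Rp1 and Rp1l1 bind the axonemal microtubules alongside the discs, and Tulp1 and Reep6 serve the traffic of proteins towards the outer segment. Impg1 and Impg2 are proteoglycans of the interphotoreceptor matrix, the material that surrounds the outer segments. In the mouse, outer segments form after birth, mainly during the second and the third postnatal week.

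H3K18La, the lactylation of histone H3 at lysine 18, was profiled by CUT&Tag, which tags or cuts the DNA next to an antibody-bound mark, in retinas of C57BL/6J mice. All groups were untreated retinas of this strain, dissociated with papain, at postnatal day 4 (P4, 2 libraries), P10 (2 libraries) and P28 (3 libraries). The comparison of ages asked how the mark at these genes differed while the retina matured. The study's text calls the libraries of an age biological replicates. Whether each came from separate or pooled animals is not given in the sources used here, so the p-values measure the spread between these libraries. The labels put P28 replicate 1 alone in batch 2 and the other 6 libraries in batch 1. Whole retinas were used, so that fewer photoreceptors and less mark per photoreceptor cannot be told apart.

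Depth differed widely. Reads in peaks numbered 295383 and 358971 at P4, 199970 and 660740 at P10, and 1615969 to 8274373 at P28, and the median peak held 1 to 2 reads in the P4 and P10 libraries against 6 to 33 at P28. The share of reads lying in peaks, relative to the authors' normalized library size, was 16.3% and 17.6% at P4, 36.1% and 52.1% at P10 and 42.4% to 57.1% at P28, so it moved with age as the values below did. Its part in them was not tested. Signal is given as RPKM, reads scaled by peak length and by that library size, and a value resting on 3 reads or fewer in every library of an age is described as at the floor. At P4, 41 of the 78 peaks were at the floor, as were 27 at P10 and 1 at P28. Of the 9 promoter peaks, those of Rp1 and Impg2 were at the floor at P4 and none at P10 or P28.

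Promoter peaks of other retinal cell types were read beside those of the members. Among all promoters of protein-coding genes, 33.1% were called higher at P28 than at P4 and 11.3% at P10. Of 8 rod marker genes 6 had a promoter peak, and all 6 were called higher at P28. Their summed signal went from 12.2 and 14.5 RPKM at P4 to 80.8 to 113.6 RPKM at P28. At P10 all 6 had already been called higher, with sums of 129.4 and 108.1 RPKM. Of these sums Nr2e3 alone held 69.4 and 59.3 RPKM, and it held 30.2, 32.8 and 36.0 RPKM at P28. From P10 to P28 the change was positive at 4 of the 6 rod promoters, with a median of 0.14 and 0 called. The cone markers had 4 promoter peaks, of which 1 rose, with sums of 4.18 and 13.5 RPKM at P4 and 17.7 to 24.8 RPKM at P28. Among the 5 promoter peaks of each list, 1 rose for the retinal progenitor markers and 1 for the Müller glia markers. The progenitor sums were 6.17 and 16.7 RPKM at P4 and 25.2 to 28.3 RPKM at P28, and the Müller glia sums 9.47 and 9.95 RPKM at P4 and 20.1 to 24.9 RPKM at P28. Most of the difference in each sum was that of the marker that rose, Hes5 for the progenitors (mean 1.28 RPKM at P4 and 13.7 RPKM at P28) and Glul for the Müller glia (2.72 and 12.6 RPKM). The means of Sfrp2 (3.89 and 0.913 RPKM) and Vim (3.06 and 1.84 RPKM) were lower at P28, and neither was called. At P10 Hes5 was already called higher (2.02, adjusted p = 0.00283) and Glul was not. The retinal pigment epithelium, which adheres to the outer segments, had a promoter peak at 2 of its 8 markers, with sums of 5.06 and 5.35 RPKM at P4 and 2.35 to 4.44 RPKM at P28, and neither was called at P28. One of them, Best1, was called lower at P10 than at P4 (-1.22, adjusted p = 0.00594), from 5 reads at P4 and 0 at P10. Endothelial sums were 10.3 and 12.03 RPKM at P4 and 5.91 to 6.68 RPKM at P28 with 0 of 4 called, and the single microglial peak was not called either. The part of cell composition in the members' values was not tested.

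The sequences below show the promoters of Prph2, Cdhr1, Tulp1 and Rom1 and 3 further peaks. Signal at these 3 peaks was higher at P10 than at P28, a difference that was not called in the main test. The Rom1 window lies outside every member peak. Promoter windows run from 250 bases before to 50 bases after the start and come from RefSeq on GRCm38.p6, where 7 of the 10 members were matched and Rp1, Rp1l1 and Reep6 were not. The other windows are the central 300 bases of a peak, read from the same assembly on the strand of the gene. Capitals mark matches, on either strand, to TAATCC (the core bound by CRX and other OTX-type homeobox factors), TGCTGA (a MAF-type half-site) or GGGCGG (a GC box), and no matches overlapped in these windows.
Prph2 promoter, chr17:46910228-46910527, plus strand: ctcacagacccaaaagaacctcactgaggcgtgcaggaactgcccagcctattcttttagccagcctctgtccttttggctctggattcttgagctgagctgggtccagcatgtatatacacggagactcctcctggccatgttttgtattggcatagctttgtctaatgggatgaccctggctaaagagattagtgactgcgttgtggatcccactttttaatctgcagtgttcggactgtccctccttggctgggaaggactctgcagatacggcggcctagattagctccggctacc
Cdhr1 promoter, chr14:37098298-37098597, minus strand: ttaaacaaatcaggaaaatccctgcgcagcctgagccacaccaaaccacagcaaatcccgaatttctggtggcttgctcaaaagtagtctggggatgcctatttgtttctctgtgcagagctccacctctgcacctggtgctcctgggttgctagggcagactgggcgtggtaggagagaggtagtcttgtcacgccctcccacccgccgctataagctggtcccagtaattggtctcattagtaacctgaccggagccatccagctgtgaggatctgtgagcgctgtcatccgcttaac
Tulp1 promoter, chr17:28365167-28365466, minus strand: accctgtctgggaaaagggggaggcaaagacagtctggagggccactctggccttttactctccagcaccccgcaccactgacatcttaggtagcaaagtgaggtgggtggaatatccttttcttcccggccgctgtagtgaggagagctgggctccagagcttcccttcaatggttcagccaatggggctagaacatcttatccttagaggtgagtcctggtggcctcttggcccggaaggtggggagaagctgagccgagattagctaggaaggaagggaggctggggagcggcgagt
Rom1 promoter, chr19:8929307-8929606, minus strand: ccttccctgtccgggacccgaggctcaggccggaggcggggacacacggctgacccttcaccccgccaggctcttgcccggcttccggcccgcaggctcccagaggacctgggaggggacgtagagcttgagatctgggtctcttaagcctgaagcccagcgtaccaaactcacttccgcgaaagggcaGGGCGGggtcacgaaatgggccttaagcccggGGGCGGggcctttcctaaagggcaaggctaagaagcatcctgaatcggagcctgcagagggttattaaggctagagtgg
Cdhr1 upstream peak, chr14:37099316-37099615, minus strand: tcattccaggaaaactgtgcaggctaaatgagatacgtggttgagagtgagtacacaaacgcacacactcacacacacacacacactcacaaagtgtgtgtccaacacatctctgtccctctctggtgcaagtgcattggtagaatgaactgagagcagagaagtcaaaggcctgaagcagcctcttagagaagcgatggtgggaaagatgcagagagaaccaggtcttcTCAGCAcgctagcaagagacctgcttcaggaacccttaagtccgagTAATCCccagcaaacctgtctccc
Tulp1 upstream peak, chr17:28371846-28372145, minus strand: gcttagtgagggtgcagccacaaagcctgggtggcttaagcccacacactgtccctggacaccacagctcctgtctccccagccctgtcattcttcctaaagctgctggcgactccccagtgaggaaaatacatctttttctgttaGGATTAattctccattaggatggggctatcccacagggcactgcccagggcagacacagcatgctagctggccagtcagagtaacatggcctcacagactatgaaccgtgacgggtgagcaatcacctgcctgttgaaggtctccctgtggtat
Prph2 intron 1 peak, chr17:46915021-46915320, plus strand: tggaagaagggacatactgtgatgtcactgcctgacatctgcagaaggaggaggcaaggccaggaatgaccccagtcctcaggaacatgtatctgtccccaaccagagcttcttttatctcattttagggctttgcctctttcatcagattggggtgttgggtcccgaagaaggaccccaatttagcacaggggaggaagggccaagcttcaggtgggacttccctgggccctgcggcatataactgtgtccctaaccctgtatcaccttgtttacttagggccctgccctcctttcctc

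None of the RefSeq promoter windows of the 7 matched members held TAATCC or TGCTGA, which occur in 7.06% and 19.5% of the 32851 windows of all genes. GGGCGG was found once in a Prom1 window and at 2 positions in the Rom1 window, against 35.7% of all windows with a match. Among the central windows of the 78 peaks, TAATCC occurred in 8 (10.3%), TGCTGA in 23 (29.5%) and GGGCGG in 4 (5.13%), beside 11.5%, 24.8% and 11.8% of the windows of all peaks. The windows with TAATCC belonged to Prph2, Prom1, Rp1l1, Cdhr1 and Tulp1, and include the upstream peaks of Cdhr1 and Tulp1 printed above.

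At the promoters, H3K18La was higher at P28 than at P4 for all 9 genes. The peaks of Prph2, Prom1, Rp1, Rp1l1, Cdhr1, Impg1, Impg2, Tulp1 and Reep6 were each called higher at an adjusted p under 0.01, by 1.80 to 2.98 on the log2(RPKM + 1) scale with a median of 2.36. For comparison, 33.1% of the 9956 protein-coding genes with a promoter peak were called higher, and their median change was 1.34. Every P28 library lay above both P4 libraries at all 9 promoters, a separation also seen at 79.6% of all promoters. No promoter changed direction in this comparison under any alternative tried, but the count fell from 9 to 4 when libraries were scaled to their reads in peaks, which moved the median of all peaks from 0.68 to -0.29, and to 4 when all libraries were thinned to the smallest. The median change of the 9 promoters was 1.02 after scaling to reads in peaks and 1.12 after quantile normalization. The share called and the median of all promoters were not taken under the alternatives, so how far the 9 stood apart from them there is not known. The calls lost were those of Prom1, Rp1, Cdhr1, Impg1 and Impg2 with the scaling and of Prom1, Rp1, Cdhr1, Impg2 and Reep6 with thinning, where their changes were 1.47, 3.39, 2.75, 2.22 and 3.81 and the median over the 9 was 2.75. Quantile normalization lost Prom1, Cdhr1 and Impg1, with changes of 0.16, 0.84 and 0.87.

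By P10 the mark already differed from P4 at some of these promoters. Those of Prph2, Rp1, Rp1l1, Impg1 and Tulp1 were called higher at P10, which is 5 of 9 against 11.3% of all promoters. Both P10 libraries lay above both P4 libraries at all 9, as at 45.7% of all promoters. This count was 1 without P4 replicate 1, 3 without P4 replicate 2, 7 without P10 replicate 1 and 1 after quantile normalization, and 8 at an adjusted p under 0.05. The median change of the 9 promoters was 1.79 at P10. It was 0.61 after scaling to reads in peaks and 0.70 after quantile normalization, where the median of all promoters was not taken. It was 1.86 without P4 replicate 1 and 2.07 without P4 replicate 2. Scaling lost the calls of Rp1 (1.01) and Impg1 (0.61), and quantile normalization those of Rp1 (1.19), Rp1l1 (0.70), Impg1 (0.43) and Tulp1 (1.90). Between P10 and P28, 0 of 9 promoters were called by limma and 0 by voom. At an unadjusted p under 0.05, 3 were higher and 0 lower at P28, beside 24% and 8.54% of all peaks. These shares were not counted for promoters alone, whose changes were larger than those of all peaks. The median change from P10 to P28 was 0.56 for the 9 promoters, 0.74 for all promoters and 0.39 for all peaks. Over all peaks only 0.00185% were called in that comparison, and 13.4% had an adjusted p under 0.05.

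**Figure D1:**
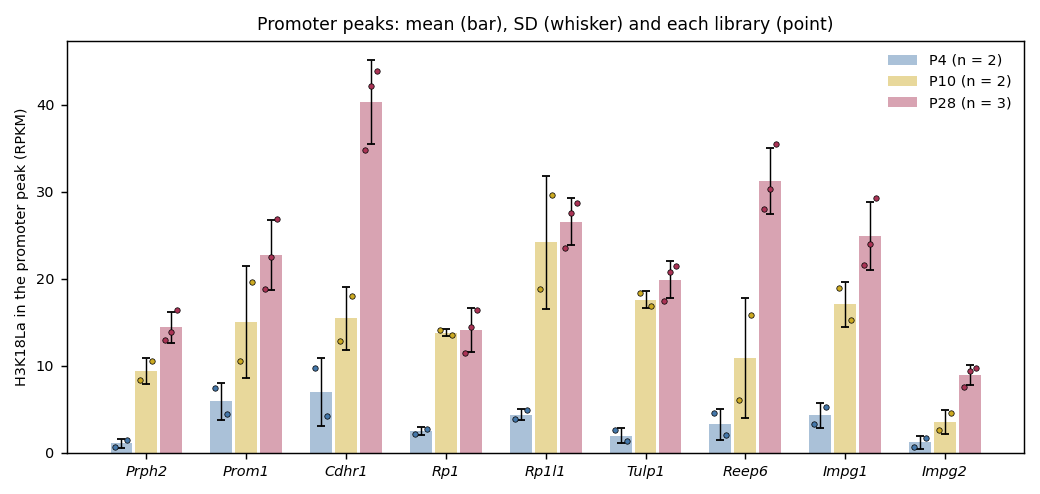
H3K18La in the promoter peak of each gene, in RPKM, at P4 (n = 2), P10 (n = 2) and P28 (n = 3). Bars are means, whiskers are SD and points are libraries. All P28 points lie above the P4 points, while P10 and P28 points overlap for Prom1, Rp1, Rp1l1 and Tulp1.

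The disc rim protein Prph2 had 5 peaks, and all 5 were called higher at P28 than at P4, against 18.9% of all peaks. Its promoter peak (chr17:46909555-46912785) held 0.703 and 1.48 RPKM at P4, 8.38 and 10.5 RPKM at P10, and 12.9, 13.9 and 16.4 RPKM at P28. The 3 ages did not overlap there, and the level at P28 was 13.2-fold that at P4, a log2 change of 2.90 (SE 0.31, adjusted p = 0.00022). At P10 and at P28 the highest Prph2 signal lay not at the promoter but in intron 1, 4.0 kb downstream (chr17:46914896-46915447), with 0.823 and 2.16 RPKM at P4, 32.7 and 41.4 RPKM at P10, and 18.5, 28.3 and 30.0 RPKM at P28. Both P10 libraries exceeded every P28 library at this intronic peak, whereas all of them exceeded P4, where only 3 reads were counted. The change from P4 to P10 was 3.98 (SE 0.36, adjusted p = 0.000381), and that from P10 to P28 was -0.54 (SE 0.33, adjusted p = 0.289).

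An intergenic peak 7.0 kb upstream of the Prph2 promoter took the other course, from 0 and 0.824 RPKM in the P4 libraries through 9.97 and 2.18 RPKM at P10 to 11.96, 16.4 and 19.8 RPKM in the P28 libraries. It held 1 read in all at P4 and 6 at P10, and every P28 library was above both P10 libraries. Its change from P4 to P28 was 3.63 (SE 0.52, adjusted p = 0.000742), and the P10 value was not called (2.13). A further peak in intron 1, 6.1 kb from the promoter, rose by 2.09 at P10 and by 2.37 at P28 relative to P4.

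Rom1, the partner of peripherin-2 in the rim, had no peak of its own name. Its start lies within a peak that the deposited annotation gave to Eml3, a neighbouring gene for a microtubule-associated protein (chr19:8928488-8930459), and the Rom1 window printed above lies inside it. That peak held 2.07 and 3.93 RPKM at P4, 7.32 and 11.99 RPKM at P10, and 12.5, 15.4 and 14.3 RPKM at P28. It rose from P4 to P28 by 1.95 (SE 0.33, adjusted p = 0.00165), and the P10 change of 1.42 was not called (adjusted p = 0.0139). Signal of the Rom1 start and of the Eml3 start cannot be told apart in a single peak.

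Prom1, whose product marks the membrane protrusions from which discs form, had 14 peaks, and 10 of them rose from P4 to P28, against 18.9% of all peaks. The promoter peak (chr5:44100411-44102303) held 7.44 and 4.41 RPKM at P4, 10.5 and 19.6 RPKM at P10, and 18.8, 22.5 and 26.8 RPKM at P28. It had the smallest promoter change of the 9 genes, 1.80 (SE 0.34, adjusted p = 0.00268), and P10 and P28 overlapped. The P10 change of 1.19 was not called, and it was -0.03 after scaling to reads in peaks and -0.34 after quantile normalization. The P28 change fell to 0.39 (adjusted p = 0.258) after scaling to reads in peaks and to 0.16 (adjusted p = 0.709) after quantile normalization. It was also not called after thinning, where it was 1.47. Nor was it called with any single P4 or P28 library left out, where it ran from 1.48 to 2.12. The adjusted p-values without a P28 library ran from 0.0106, within batch 1, to 0.017. The promoter peak also spans an antisense gene, Gm16401, which these reads cannot separate from Prom1.

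Of the 12 intronic peaks of Prom1, 7 had a larger change from P4 to P28 than its promoter. Such peaks numbered 2 of 10 at Rp1, 2 of 6 at Rp1l1, 1 of 2 at Prph2 and 1 of 1 at Reep6. They numbered 0 of 3 at Cdhr1, 0 of 5 at Impg1 and 0 of 2 at Impg2. A Prom1 peak 15.3 kb downstream, in intron 1, held 2.23 and 3.52 RPKM at P4 and 17.7 and 21.7 RPKM at P10. At P28 it held 22.4, 30.9 and 36.6 RPKM. It held the highest mean of any Prom1 peak at P10 and at P28, and rose by 2.43 and 2.99 relative to P4. The peaks 4.8 kb and 22.1 kb downstream rose by 2.92 and 3.41 to P28, the latter from 1 read in all at P4. Both had already risen at P10, by 2.76 and 3.40, and their P28 libraries overlapped those of P10.

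Cdhr1, the photoreceptor cadherin at the base of the outer segment, had 2 promoter peaks that took different courses. The peak over the main start (chr14:37097930-37098629) went from 9.74 and 4.26 RPKM in the P4 libraries through 12.9 and 18.02 RPKM at P10 to 34.9, 42.1 and 43.9 RPKM in the P28 libraries. At P28 this was the highest mean of all member promoters, 40.3 ± 4.80 RPKM (SD, n = 3), 5.76-fold that of P4 and 2.61-fold that of P10. Its change from P4 to P28 was 2.45 (SE 0.33, adjusted p = 0.000561) and that from P10 to P28 was 1.34 (SE 0.33, adjusted p = 0.031), which misses the threshold of 0.01. The former was not called without P4 replicate 2 (1.94, adjusted p = 0.0103). The P10 change against P4 of 1.11 was not called, and turned to -0.11 after scaling to reads in peaks and to -0.44 after quantile normalization. Averaged over both promoter peaks of the gene, it was called (adjusted p = 0.0045).

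The other Cdhr1 promoter peak lay 1.2 kb upstream (chr14:37099292-37099640) and held 6.51 and 5.13 RPKM at P4, 25.9 and 33.9 RPKM at P10, and 12.8, 15.5 and 17.8 RPKM at P28. Both P10 libraries were above all P28 libraries, and all of these were above P4. From P4 to P10 it rose by 2.17 (SE 0.30, adjusted p = 0.00118), while from P10 to P28 its change was -0.92 (SE 0.27, adjusted p = 0.0533). The call at P28 against P4, 1.26 (SE 0.27, adjusted p = 0.0056), was lost in most alternatives, and the change was -0.14 after scaling to reads in peaks and -0.38 after quantile normalization. Within each library, the upstream peak was 0.669 and 1.20 times the main promoter peak at P4, 2.01 and 1.88 times at P10, and 0.367, 0.368 and 0.406 times at P28. These ratios need no scaling between libraries, and the ages did not overlap, but the pair was chosen after its values were seen. Over both libraries of an age, the upstream and the main peak held 8 and 20 reads at P4 and 20 and 21 reads at P10. In the gene body, a peak over exon 4, 3.2 kb downstream, was called at P28 (1.74).

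Rp1, which binds the axonemal microtubules and keeps discs in order, had 16 peaks, and 3 rose from P4 to P28, which is 18.8% against 18.9% of all peaks. Its promoter peak (chr1:4360251-4360892) held 2.12 and 2.79 RPKM at P4, 14.1 and 13.5 RPKM at P10, and 11.4, 14.5 and 16.4 RPKM at P28. The P10 and P28 values lay in 1 range, above both P4 libraries of 3 reads each. The change was 2.10 (SE 0.31, adjusted p = 0.00152) at P10 and 2.12 (SE 0.29, adjusted p = 0.000535) at P28, and that from P10 to P28 was 0.02 with an SE of 0.29. The strongest Rp1 peak lay 23.1 kb upstream of this start, in intron 1 of a longer transcript (chr1:4383310-4384031), and went from 4.41 and 4.13 RPKM in the P4 libraries through 15.0 and 25.1 RPKM at P10 to 24.3, 33.2 and 42.6 RPKM in the P28 libraries. It rose by 1.96 at P10 and 2.67 at P28, and a peak 55.9 kb upstream rose by 2.26 at P28.

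In the main limma fit, the Rp1 peaks at 132.2, 262.4 and 301.2 kb downstream were the only member peaks called lower, all at P10 against P4. They held 0 reads in both P10 libraries and 2 to 3 reads in all at P4, so both ages were at the floor and no fold is given. Their adjusted p-values were 0.00786, 0.00936 and 0.00999, and 0 of the 3 were called by voom on the recovered reads. Among all peaks, 7.34% were called lower at P10.

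The related gene Rp1l1, whose product also decorates the axoneme, had 14 peaks with 6 called higher at P28 than at P4, against 18.9% of all peaks. The promoter peak (chr14:63991726-63993935) held 3.91 and 4.86 RPKM at P4, 18.8 and 29.6 RPKM at P10, and 23.5, 27.5 and 28.7 RPKM at P28. It had risen by 2.20 (SE 0.31, adjusted p = 0.00123) at P10 and stood at 2.36 (SE 0.28, adjusted p = 0.000315) at P28, with P10 and P28 libraries overlapping. A peak in intron 1, 27.2 kb downstream, followed the same course with means of 2.36, 20.9 and 22.0 RPKM, and rose by 2.71 and 2.77. Further along, the peaks 29.4 kb downstream, in the 5′ UTR, and 45.5 kb downstream, beyond the gene, were called at P28 (2.73 and 2.56) and not at P10 (1.33 and 1.55). At the former, values went from 0.764 and 1.51 RPKM in the P4 libraries through 3.04 and 5.97 RPKM at P10 to 10.8, 13.7 and 14.5 RPKM in the P28 libraries, and every P28 library was above both P10 libraries.

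Tulp1, a tubby-like protein needed for transport into the outer segment, had 8 peaks, of which 7 were called higher at P10 and 6 at P28 relative to P4, against 11.4% and 18.9% of all peaks. Its promoter peak (chr17:28363902-28365675) held 2.56 and 1.35 RPKM at P4, 18.3 and 16.9 RPKM at P10, and 17.5, 20.8 and 21.4 RPKM at P28. The level at P28 was 10.2-fold that at P4, with changes of 2.69 (SE 0.32, adjusted p = 0.000691) at P10 and 2.85 (SE 0.29, adjusted p = 0.000174) at P28, and P10 and P28 overlapped. Upstream, 5 intergenic peaks called higher at P10 lay between 7.2 and 24.7 kb from the promoter, and they overlap no gene of the GENCODE annotation.

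At P10, the mean of 3 of these 5 upstream peaks exceeded that of the promoter. The one at 15.8 kb (chr17:28379644-28381484) went from 2.71 and 2.92 RPKM in the P4 libraries through 40.2 and 40.7 RPKM at P10 to 30.6, 31.6 and 36.5 RPKM in the P28 libraries. Its change was 3.44 (SE 0.26, adjusted p = 0.00038) at P10 and 3.15 (SE 0.24, adjusted p = 0.000113) at P28. The peak at 9.3 kb held 0.734 and 0.964 RPKM at P4, 29.2 and 24.8 RPKM at P10, and 18.6, 19.8 and 20.4 RPKM at P28, from 4 reads in all at P4, and changed by 3.92 and 3.48. In contrast, the peak at 21.6 kb held 0.444 and 1.75 RPKM at P4, 8.82 and 10.8 RPKM at P10, and 18.2, 21.0 and 25.0 RPKM at P28, with every P28 library above both P10 libraries, and changed by 2.43 at P10 and 3.48 at P28.

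The peak at 7.2 kb, whose central sequence is printed above, was singled out after its values were seen. It had the highest P10 mean of all 78 peaks, 45.2 ± 3.91 RPKM (SD, n = 2), and its libraries held 5.34 and 4.54 RPKM at P4, 42.4 and 48.0 RPKM at P10, and 24.1, 26.4 and 31.7 RPKM at P28. It had 28 reads at P4, rose by 2.96 (SE 0.27, adjusted p = 0.000381) at P10, and changed by -0.71 (SE 0.25, adjusted p = 0.0815) from P10 to P28. A small peak 5.6 kb downstream of the main start, annotated as a promoter of a shorter transcript and also singled out after its values were seen, went from 2.40 and 1.58 RPKM in the P4 libraries through 14.3 and 12.5 RPKM at P10 to 3.47, 6.67 and 6.85 RPKM in the P28 libraries. Its ratio to the main promoter peak was 0.939 and 1.17 at P4, 0.782 and 0.741 at P10, and 0.199, 0.321 and 0.320 at P28. The small peak held only 2 and 1 reads in the P4 libraries and 9 reads in all at P10.

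**Figure D2:**
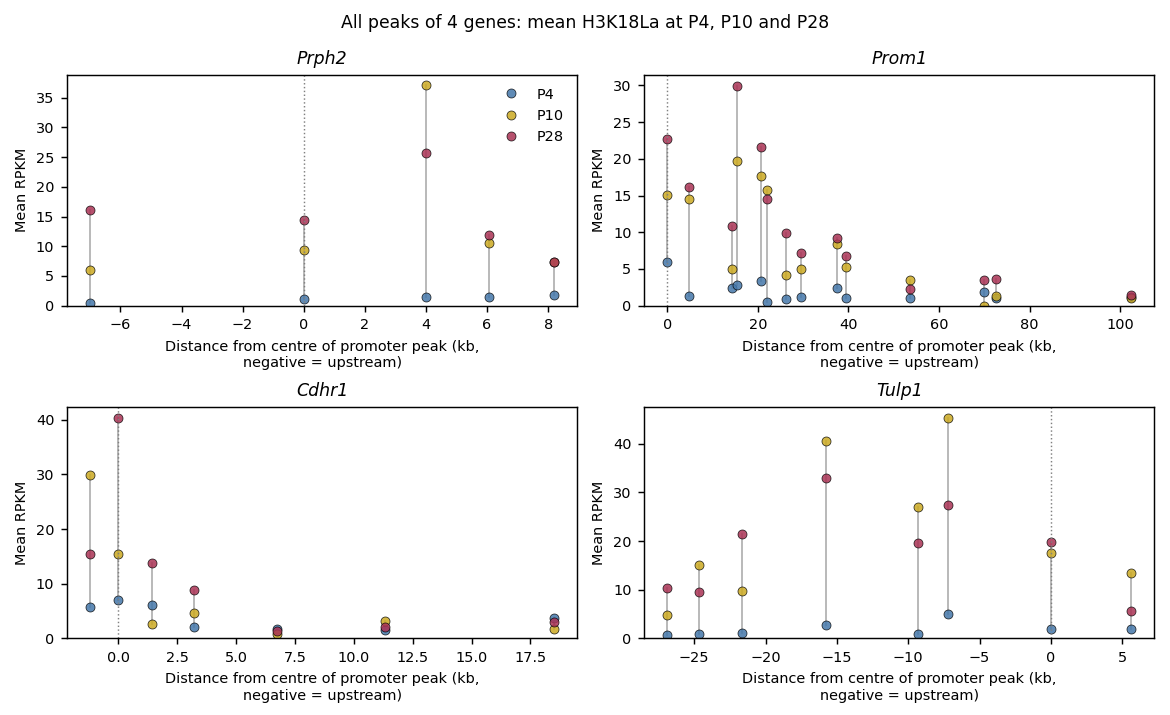
Mean RPKM of every peak of Prph2, Prom1, Cdhr1 and Tulp1 at the 3 ages against its distance in kb from the centre of the promoter peak (dotted line). P10 points stand above P28 points at the Prph2 intron 1 peak, the upstream Cdhr1 promoter peak and 4 upstream Tulp1 peaks, and below them at the Cdhr1 main promoter and the Prph2 peak 7.0 kb upstream.

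Reep6, an endoplasmic reticulum protein of rods that serves vesicle trafficking, had 2 peaks and both rose from P4 to P28, against 18.9% of all peaks. The promoter peak (chr10:80329502-80330100) went from 4.55 and 1.99 RPKM in the P4 libraries through 6.03 and 15.8 RPKM at P10 to 28.03, 30.4 and 35.5 RPKM in the P28 libraries. Its change of 2.98 (SE 0.41, adjusted p = 0.000566) was the largest of the member promoters and was not called without P4 replicate 2 (2.53, adjusted p = 0.0189), and that from P10 to P28 was 1.56 (SE 0.41, adjusted p = 0.0348), again short of the threshold. Without P10 replicate 2, which left P10 replicate 1 with 2 reads at this peak, the change from P10 to P28 was 2.19. The peak in intron 1, 2.2 kb downstream, held 0.790 and 2.42 RPKM at P4, 25.1 and 16.4 RPKM at P10, and 19.9, 21.8 and 24.2 RPKM at P28. It had risen by 3.11 (SE 0.37, adjusted p = 0.000745) at P10, with P10 and P28 overlapping. The promoter was 0.240 and 0.961 times the intronic peak at P10 and 1.41, 1.39 and 1.47 times at P28, while the P4 ratios of 5.76 and 0.823 rest on 6 and 3 reads in P4 replicate 1 and on 2 and 7 reads in P4 replicate 2.

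Of the matrix proteoglycan genes, Impg1 had 8 peaks with 2 called higher at P28 and Impg2 had 4 with 1, beside 18.9% of all peaks. The Impg1 promoter peak (chr9:80465295-80466534) held 3.30 and 5.29 RPKM at P4, 18.9 and 15.3 RPKM at P10, and 21.6, 24.0 and 29.2 RPKM at P28. It rose by 1.79 (SE 0.31, adjusted p = 0.00285) at P10 and 2.31 (SE 0.29, adjusted p = 0.000367) at P28, without overlap between the 3 ages. After scaling to reads in peaks these changes were 0.61 (adjusted p = 0.141) and 0.93 (adjusted p = 0.0237). After quantile normalization they were 0.43 (adjusted p = 0.308) and 0.87 (adjusted p = 0.0269). The P10 change was also not called without P4 replicate 1 (1.52) or without P4 replicate 2 (2.07). An intron 1 peak 6.4 kb downstream was called at P28 (1.93), from 1 read at P4.

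Within the Impg1 gene body, other peaks were lower at the older age, though none was called in the main limma fit. In intron 6, 75.0 kb from the promoter, a peak singled out after its values were seen held 5.12 and 5.603 RPKM at P4, 0 and 2.22 RPKM at P10, and 0.493, 1.04 and 1.46 RPKM at P28. Its 22 reads at P4 gave the highest P4 mean of any Impg1 peak, and the change to P28 was -1.70 (SE 0.55, adjusted p = 0.033). Every P28 library lay below both P4 libraries at 4 of the 8 Impg1 peaks, at 7 of all 78 member peaks and at 20.7% of all peaks. The share of the reads of all Impg1 peaks that fell in the promoter peak was 20.9% and 28.9% at P4, 60.0% and 72.2% at P10, and 73.9% to 77.4% at P28.

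At Impg2 the promoter peak (chr16:56203970-56204662) went from 0.656 and 1.72 RPKM in the P4 libraries through 2.61 and 4.55 RPKM at P10 to 7.57, 9.40 and 9.72 RPKM in the P28 libraries. It was the lowest promoter of the 9 genes at P28, with 3 reads in all at P4 and 5 at P10. Every P28 library exceeded both P10 libraries, the change from P4 was 2.21 (SE 0.38, adjusted p = 0.00169), and that from P10 was 1.14 (SE 0.38, adjusted p = 0.0723). The call against P4 was lost without P4 replicate 1, with a change of 1.855. It was also lost without P28 replicate 2 (2.175, adjusted p = 0.0139) and without P28 replicate 3 (2.153, adjusted p = 0.0127). After scaling to reads in peaks the change from P4 was 1.15 (adjusted p = 0.0268). No other Impg2 peak was called in any contrast of the main limma fit.

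Over all 78 peaks, 38 were called higher at P28 than at P4 and 0 lower, where 18.9% of all peaks were called higher and 4.21% lower. The median change was 1.80 against 0.68 for all peaks. It was 0.64 against -0.29 after scaling to reads in peaks and 0.95 against 0.09 after quantile normalization. By voom on the recovered reads 49 were higher and 2 lower, and at an unadjusted p under 0.05 the limma fit gave 57 and 4. The count of 38 fell to 19 without P4 replicate 1, 20 without P4 replicate 2, 23 without P28 replicate 2 and 24 without P28 replicate 3. After scaling to reads in peaks 18 were higher and 4 lower, and after quantile normalization 27 and 4. The shares of all peaks called were not counted under these settings. Every P28 library stood above both P4 libraries at 62 of the 78 peaks, against 50.6% of all peaks. At P10, 23 were called higher and 3 lower, against 11.4% higher among all peaks, and both P10 libraries stood above both P4 libraries at 47, against 36.1%. The P10 total of 26 fell to 9 without P4 replicate 1 and to 14 without P4 replicate 2, and scaling to reads in peaks gave 13 higher and 4 lower. Peaks enter the table if they were called at any 1 of the ages, so peaks high at only 1 age are among these counts.

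By annotation, the 78 peaks comprised 41 in introns, 17 in distal intergenic regions, 11 in promoters, 8 in exons and 1 in a 5′ UTR. Outside the 9 main promoter peaks, 29 of 69 peaks were called higher at P28, against 18.9% of all peaks, and 18 were called higher and 3 lower at P10, against 11.4% and 7.34%.

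From P10 to P28 the change was positive in sign at 62 of the 78 peaks, beside 66.9% of all peaks, with a median of 0.56 against 0.39 for all peaks. With limma 0 were called and with voom 2, and 11 had an adjusted p under 0.05, all higher at P28, close to the share of 13.4% among all peaks. At an unadjusted p under 0.05, 29 were higher and 3 lower at P28, where 24% and 8.54% of all peaks were. Every P28 library was above both P10 libraries at 32 of the 78 peaks, which is 41.0% against 32.2% of all peaks, and at 5 of the 9 promoters against 55% of all promoters. The reverse order held at 10 peaks, which is 12.8% against 14.9% of all peaks. Those 10 peaks comprised 5 of the 8 peaks of Tulp1 and 1 each of Prph2, Cdhr1, Rp1l1, Prom1 and Impg1. Without P10 replicate 2 the 78 peaks gave 11 calls, and without P10 replicate 1 they gave 1.

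**Figure D3:**
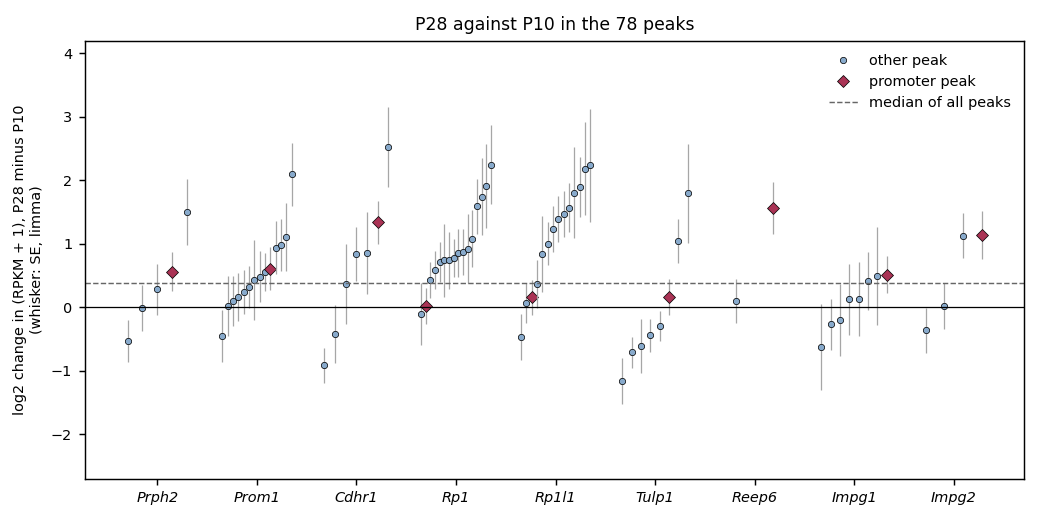
Change of each of the 78 peaks from P10 to P28 on the log2(RPKM + 1) scale, by gene, with whiskers of 1 SE from limma; diamonds are main promoter peaks and the dashed line is the median of all 108253 peaks, 0.39. None was called by limma. Cdhr1, Reep6 and Impg2 have the highest promoter diamonds, and 5 of 8 Tulp1 points lie below 0. The Rp1, Rp1l1 and Tulp1 diamonds near 0 fall below it after scaling to reads in peaks or median centring.

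The promoters of Cdhr1, Reep6 and Impg2 were the 3 of 9 with an unadjusted p under 0.05 from P10 to P28. At that threshold 24% of all peaks were higher at P28 and 8.54% lower, shares that were not counted for promoters alone. The 3 promoters had P10 means of 15.5, 10.9 and 3.58 RPKM and P28 means of 40.3, 31.3 and 8.90 RPKM. Those of Rp1, Rp1l1 and Tulp1 had means of 13.8, 24.2 and 17.6 RPKM at P10 and of 14.1, 26.6 and 19.9 RPKM at P28. Prph2, Prom1 and Impg1 lay between, with changes from P10 of 0.56, 0.61 and 0.52, beside a median of 0.74 for all promoters. In order of the P28 level, the promoters ran Cdhr1, Reep6, Rp1l1, Impg1, Prom1, Tulp1, Prph2, Rp1 and Impg2. Of the neighbours in this order, only Tulp1 and Prph2, and Rp1 and Impg2, had P28 libraries that did not overlap. Within every P28 library, Cdhr1 also exceeded Reep6, Reep6 exceeded Rp1l1, Impg1 exceeded Prom1, and Prom1 exceeded Tulp1. Rp1l1 and Impg1, and Prph2 and Rp1, did not keep their order in every P28 library.

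**Figure D4:**
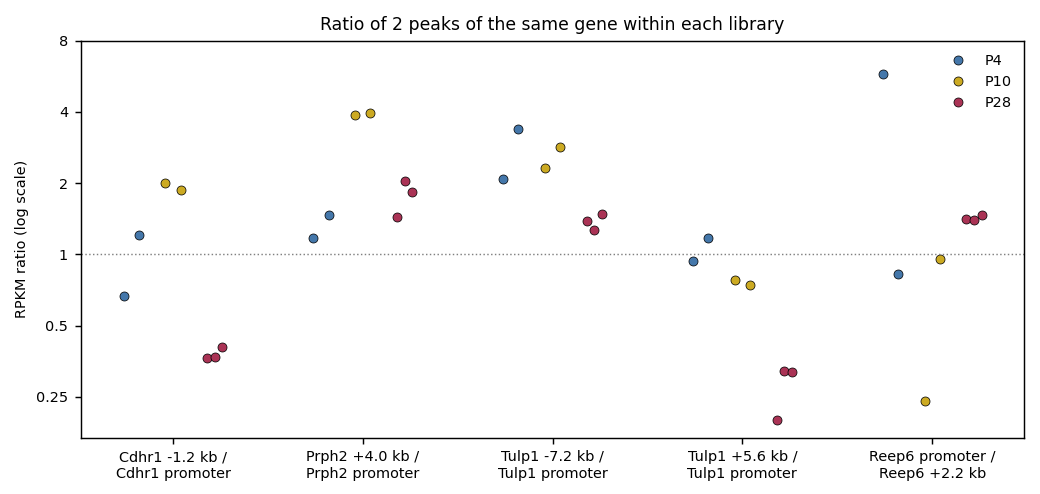
Ratio of the RPKM of 2 peaks of the same gene within each library, on a log axis, where scaling between libraries cancels; the 5 pairs were chosen after their values were seen. The Cdhr1 ratios are 1.88 and 2.01 at P10 and 0.367 to 0.406 at P28, and the Prph2 ratios are 3.90 and 3.95 at P10 and 1.44 to 2.03 at P28.

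Of 22 other genes of the outer segment, 20 had a promoter peak, and 15 of these were called higher at P28 than at P4 and 0 lower, against 33.1% of all promoters called higher. Their median change was 2.25 on the log2(RPKM + 1) scale, beside 1.34 for all promoters. It was 1.21 after scaling to reads in peaks and 1.59 after quantile normalization, where the median of all promoters was not taken. The largest rises were those of Unc119, a lipid-binding transport protein (3.06), Cngb1, a subunit of the rod cation channel (3.05), and Prcd, a small disc protein (2.97). All 20 changes were positive in sign, as were 90.3% of those of all promoters. At P10, 11 of the 20 were called higher, against 11.3% of all promoters. The P28 count was 8 after scaling to reads in peaks, 8 without P4 replicate 1 and 7 without P4 replicate 2.

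The mean log2(RPKM + 1) over the 9 promoters was 2.04 and 1.95 at P4, 3.56 and 3.96 at P10, and 4.24, 4.46 and 4.60 at P28. The promoters most like this profile over the 7 libraries, among 9763 with 20 or more reads outside the members, were those of Aacs, Slc24a1, Slc19a1, Ppp3cc and Hpcal1, with Pearson's r from 0.9973 to 0.9991. Slc24a1, which encodes the rod exchanger for sodium, calcium and potassium, held 0.197 and 0 RPKM at P4, 6.26 and 8.88 RPKM at P10, and 13.5, 16.6 and 19.6 RPKM at P28. Values of r above 0.9 were common, at 27.4% of those promoters, and the 7 points share library depth. The members' own r with their mean ran from 0.932 for Cdhr1 to 0.985 for Prph2.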

How the data were processed

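CUT&Tag for H3K18La gave 7 retinal libraries. The authors mapped reads to GRCm38 with the nf-core/cutandrun pipeline, kept MACS peaks that 2 or more replicates of an age shared, merged the ages, annotated peaks with ChIPseeker 1.34.1 (promoter from 1000 bases before to 500 after a start) and counted reads with csaw. The study's text counts 3 replicates per age, whereas P4 and P10 have 2 libraries each here. The labels name pA-MNase as the tethered enzyme, whereas the study's methods name a protein A-Tn5 transposase. The authors deposited RPKM values per peak and library, divided by a library size normalized over windows of 10000 bases. A deposited table of the authors' own comparisons, with fold changes and p-values, was not used.

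RPKM multiplied by peak width gave whole reads for 100% of values (tolerance 0.01). The main test was limma 3.58.1 (R 4.3.3) with a variance trend on log2(RPKM + 1), which understates changes of low peaks, fitted to all 7 libraries and 108253 peaks, with Benjamini-Hochberg adjustment over all peaks and calls at 0.01. The script was tested on simulated data. Where a gene had several promoter peaks, the one nearest its start was used. Named were all promoter peaks, up to 3 other called peaks per gene with the largest change from P4 to P28 and any called lower; others are marked as chosen after their values were seen. The members and gene lists were chosen with earlier results of these data known. The P4 libraries did not differ beyond sampling noise over single peaks (chi-square per degree of freedom 0.962, p = 1) but did over 1 Mb bins (1.21, p = 7.22e-13), and were kept as 2 replicates. Same-numbered libraries did not deviate together. Intervals are not given, and floors cover counting error only. Alternatives covered pseudocounts, filters, scalings, voom, thinning, the replicate block, batch and each library left out. Leaving out a P4 or P10 library left a single library at that age, so the spread in those fits came from the other ages.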

Additional observations from a re-analysis of the deposited data

How the results depend on the processing

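Depth limited the P4 and P10 values, where the median peak held 1 to 2 reads. After scaling to reads in peaks, the promoter calls were 4 at P28 against P4 and 3 at P10 against P4, those over all 78 peaks 22 and 17, and those of the other outer segment genes 8. Thinned to the smallest library, the same counts were 4, 2, 8, 3 and 3; thinning removes reads and so calls. Quantile normalization left 1 promoter call and 13 calls over the 78 peaks at P10 against P4. At an adjusted p of 0.05 there were 8 promoter and 40 member peaks called at P10 against P4, and 2 and 11 at P28 against P10. Over the 78 peaks, P28 against P10 gave 1 call with median centring (the upstream Cdhr1 promoter peak, lower at P28) and 2 with voom. For the other differences the cause was not tested.

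Leaving out each library in turn gave 6 to 9 promoter calls at P28 against P4, 1 to 7 at P10 against P4 and 0 to 1 at P28 against P10. Over all 78 peaks it gave 19 to 53, 9 to 32 and 0 to 11, and for the other outer segment genes 7 to 18. With the replicate block, which the numbers do not justify since same-numbered libraries correlated by -0.001 to 0.047, the calls at P28 against P4 were 9 promoters, 28 member peaks and 13 other outer segment genes.

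Of the changes of named peaks, 21 values reversed, 169 kept direction but lost the call, 28 gained one and 1275 kept direction and call status. At P10 against P4, scaling to reads in peaks gave -0.034 for the Prom1 promoter, -0.11 for Cdhr1 and -0.10 for the Cdhr1 peak at 3.2 kb, and quantile normalization -0.34 and -0.44 for the 2 promoters. At P28 against P4, the upstream Cdhr1 peak gave -0.14 and -0.38 with those scalings. At P28 against P10, where the changes were near 0, the Rp1 promoter gave -0.17, -0.26, -0.065, -0.026 and -0.092 with scaling to reads in peaks, median centring, quantile normalization, voom and the replicate block, and -0.092 to 0.15 with a library left out. Rp1l1 gave -0.03 and -0.11 with the first pair of these and -0.16 to 0.47 with a library left out, and Tulp1 gave -0.027 and -0.11, and -0.50 as the mean over both its promoter peaks.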
